A study of Homo sapiens with 6 samples.

Results

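The genes described are 8 genes of nitrogen metabolism: CPS1, NAGS, OTC, ASS1, ASL and ARG2, which belong to the urea cycle, and CAD and ODC1. CAD makes its own carbamoyl phosphate for pyrimidines, and ODC1 uses ornithine for polyamines. The members are 8 of the 20046 genes named on the array. They were taken by name, with every probe that the platform annotation gives them, 12 probes in all. The genes were chosen by earlier values of the difference between H460 and HCC95 on these arrays, so that difference is described below and not tested.

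RNA was hybridised to 6 Illumina HumanHT-12 v4 arrays, 1 per group. H460 cells, a line from a large cell lung carcinoma, carried pSIn-E2F-LZTFL1-ires-GFP-puro or the control vector pSin-E2F-GFP-puro and were untreated. HCC95 cells, a line from a squamous cell lung carcinoma, carried the same LZTFL1 or GFP vectors, each with and without TGFβ, at a dose and for a time that the labels do not state. All groups grew in the same serum-containing medium and both vectors carry GFP, and nothing in the labels says how many cultures or clones stood behind a group. LZTFL1 is a cytoplasmic protein that binds the BBSome, and TGFβ is a growth factor that drives epithelial-mesenchymal transition in many epithelial cells.

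In the liver, the urea cycle turns ammonia into urea. CPS1, carbamoyl-phosphate synthase 1, makes carbamoyl phosphate from ammonia and bicarbonate in the mitochondrion and needs N-acetylglutamate, the product of NAGS, as its activator. OTC joins carbamoyl phosphate to ornithine to give citrulline. In the cytosol ASS1 adds aspartate to citrulline, ASL splits the argininosuccinate into arginine and fumarate, and an arginase closes the cycle by releasing urea and ornithine. Most cells outside the liver and intestine have little CPS1, and in lung cancer CPS1 is known from cells that have lost the kinase STK11.

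Promoter windows of these genes are shown first, because CPS1 was the member that lay furthest apart between the lines, and ASS1 and ODC1 were those that passed a test in HCC95. The sequences come from RefSeq on the build GRCh38.p14, and each window runs from 250 bases before a gene's start to 50 bases after it. All 8 genes matched, with 12 windows. CPS1 has 3 windows, all on the plus strand, and the array does not tell which start was used. ASS1 window 2 and ODC1 window 1 are shown beside them. Capitals mark CACGTG, the E-box that MYC and USF proteins recognise.
CPS1 window 1, chr2:210477435-210477734: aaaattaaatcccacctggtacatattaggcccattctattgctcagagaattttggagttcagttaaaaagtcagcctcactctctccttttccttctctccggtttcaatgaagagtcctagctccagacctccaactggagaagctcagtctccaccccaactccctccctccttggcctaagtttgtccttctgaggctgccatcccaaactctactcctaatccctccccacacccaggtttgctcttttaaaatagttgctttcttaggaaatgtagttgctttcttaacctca
CPS1 window 2, chr2:210519468-210519767: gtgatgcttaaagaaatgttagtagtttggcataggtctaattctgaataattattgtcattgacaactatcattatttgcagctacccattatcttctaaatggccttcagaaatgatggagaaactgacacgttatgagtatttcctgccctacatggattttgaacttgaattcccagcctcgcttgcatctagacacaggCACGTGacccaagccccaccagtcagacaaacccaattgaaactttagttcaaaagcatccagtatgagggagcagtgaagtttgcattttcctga
CPS1 window 3, chr2:210593105-210593404: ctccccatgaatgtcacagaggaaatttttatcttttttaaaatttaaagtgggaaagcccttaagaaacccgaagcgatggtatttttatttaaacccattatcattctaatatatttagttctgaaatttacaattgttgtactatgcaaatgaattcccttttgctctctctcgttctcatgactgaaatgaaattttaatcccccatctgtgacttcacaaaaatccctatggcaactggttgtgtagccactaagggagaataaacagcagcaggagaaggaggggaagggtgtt
ASS1 window 2, plus strand, chr9:130444711-130445010: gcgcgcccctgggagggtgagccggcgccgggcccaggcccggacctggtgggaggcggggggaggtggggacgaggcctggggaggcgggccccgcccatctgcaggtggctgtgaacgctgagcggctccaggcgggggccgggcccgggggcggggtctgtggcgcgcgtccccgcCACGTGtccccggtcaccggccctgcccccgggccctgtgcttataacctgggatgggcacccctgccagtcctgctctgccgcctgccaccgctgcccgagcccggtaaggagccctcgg
ODC1 window 1, minus strand, chr2:10447963-10448262: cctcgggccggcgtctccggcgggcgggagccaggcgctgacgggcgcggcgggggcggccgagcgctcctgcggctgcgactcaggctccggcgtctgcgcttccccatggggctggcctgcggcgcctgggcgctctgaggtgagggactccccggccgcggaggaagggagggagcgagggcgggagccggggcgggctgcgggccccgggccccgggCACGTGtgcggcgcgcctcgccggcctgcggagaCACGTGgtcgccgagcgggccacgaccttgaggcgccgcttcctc

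The 3 CPS1 windows had a GC content of 45.3%, 40.3% and 36.7% and held 1, 3 and 3 CpG dinucleotides. Over all 35116 windows in the RefSeq table the median was 58.7% GC and 14 CpG, and 6.11% of them had a lower GC content than CPS1 window 3. OTC, at or near background in both lines, had a window of the same kind, with 41.7% GC and 3 CpG. Both ASS1 windows held 29 CpG, at 71.7% and 78.3% GC, and the ODC1 windows held 46 and 43, at 80.7% and 79.0% GC. CACGTG, which reads the same on both strands, began at position -46 from the start in CPS1 window 2 and at -71 in ASS1 window 2. In ODC1 window 1 it began at -29 and again at 5, the pair known from this gene as MYC-binding E-boxes. Of all windows, 7.26% held CACGTG. The ARG2 window held 2 copies of TGACGTCA, the cAMP response element, which stands in 1.85% of all windows. The OTC window held TATAAA, the core of a TATA box, at -192, and 11.5% of all windows hold it somewhere. TGACGTCA also reads the same on both strands, TATAAA was sought on both, and each match is a run of letters and not a bound site.

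The 6 arrays gave 14136 to 16423 detected probes of 47323 (detection p under 0.01, the share of negative-control beads at least as bright) and median signals of 104 to 125. Normalized values correlated at 0.989 between the H460 arrays, at 0.982 to 0.987 among the HCC95 arrays and at 0.906 to 0.911 between the lines. The lines kept their labelled character in 7 squamous and basal markers that the annotation lists. All 7 were detected on every HCC95 array and were at least 2-fold lower in H460 in both vector pairs, among them KRT5 by log2 of at least -7.60 and -7.35, PKP1 by at least -6.02 and -6.22 and SOX2 by -5.04 and at least -5.10 in the LZTFL1 and GFP pairs. Hepatocyte markers, which travel with CPS1 in liver, were mostly undetected: 3 of 12 (ALB, FGB and TF) were detected on any array, the summed normalized intensity of the 12 was 362 and 402 in H460 and 350 to 387 in HCC95, and none of 7 intestinal markers was detected. FGB, a fibrinogen chain, was detected on both H460 arrays and on no HCC95 array, as CPS1 was, and was at least 0.70 and 0.78 higher in the LZTFL1 and GFP pairs, and its part in the CPS1 difference was not tested. Of 7 glandular lung markers MUC1 alone was detected, 3.12 and 3.21 higher in H460, and NKX2-1 and the surfactant genes were not. Of 12 listed stromal, endothelial and white cell markers 5 were detected on any array. PTPRC, CD3D, PECAM1 and CDH5 were not. CD14 and PDGFRB were detected on both H460 arrays and on no HCC95 array, at least 4.30 and 4.12 higher for CD14 and at least 1.82 and 2.19 for PDGFRB in the LZTFL1 and GFP pairs. The summed normalized intensity of the 12 was 1207 and 1198 in H460 and 383 to 506 in HCC95.

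The genes that check the vector and treatment labels did not follow them. The LZTFL1 probe had log2 values of 6.39 on the H460 LZTFL1 array and 6.36 on the H460 GFP array. In HCC95 it was not detected on either array labelled LZTFL1 (5.07 with and without TGFβ), against 5.40, also not detected, on the GFP array labelled TGFβ and 5.75, detected, on the untreated GFP array. Whether that probe lies in the sequence the vector carried was not tested. PMEPA1, a textbook target that TGFβ raises, was lower on the arrays labelled TGFβ, at 6.21 against 9.53 on the untreated array with LZTFL1 and at 7.16 against 9.38 with GFP. All directions of an LZTFL1 or TGFβ difference below are therefore those of the labels. The HCC95 arrays taken as untreated in the difference between the lines are likewise those so labelled.

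CPS1 was the member that lay furthest apart between the lines. Its single probe, ILMN_1792748, had a raw signal of 6972 on the H460 LZTFL1 array and 6437 on the H460 GFP array. In HCC95 the signals were 114 (LZTFL1, labelled TGFβ), 118 (GFP, labelled TGFβ), 117 (LZTFL1) and 128 (GFP), close to the median of all probes. The probe was detected on both H460 arrays and on none of the 4 HCC95 arrays, whose detection p ran between 0.0325 and 0.366. In a culture measured whole, fewer cells with a transcript and less of it per cell cannot be told apart.

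After background correction and quantile normalization, CPS1 stood at log2 12.67 and 12.66 in H460 LZTFL1 and H460 GFP cells. In HCC95 it stood at 4.77 and 5.36 on the LZTFL1 and GFP arrays labelled TGFβ, and at 4.69 and 4.95 on the untreated LZTFL1 and GFP arrays, all under the lowest detected value of their arrays. Against that lowest detected value, H460 exceeded HCC95 by at least 7.34 log2 units in the LZTFL1 pair, at least 162-fold, and by at least 7.28 in the GFP pair, at least 155-fold. Of the 13567 genes measured in both untreated pairs, CPS1 was the 7th highest in H460 by its mean of 7.31, and 0.118% of the genes had a larger mean difference in either direction.

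CPS1 was the only 1 of the 5 members measured in both untreated pairs that was 2-fold or more apart the same way in both. The same held for 18.9% of all genes measured in both, 9.46% higher and 9.48% lower in H460. ODC1 and CAD lay just inside the 2-fold line on their mean, and ASS1 lay near 0. These values are those by which the genes were picked. Against the HCC95 arrays labelled TGFβ, a label that PMEPA1 did not follow, the means were 1.55 for ODC1, -1.10 for CAD and -0.80 for ASS1. The plot of all probes by array shows the members together.

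**Figure D1:**
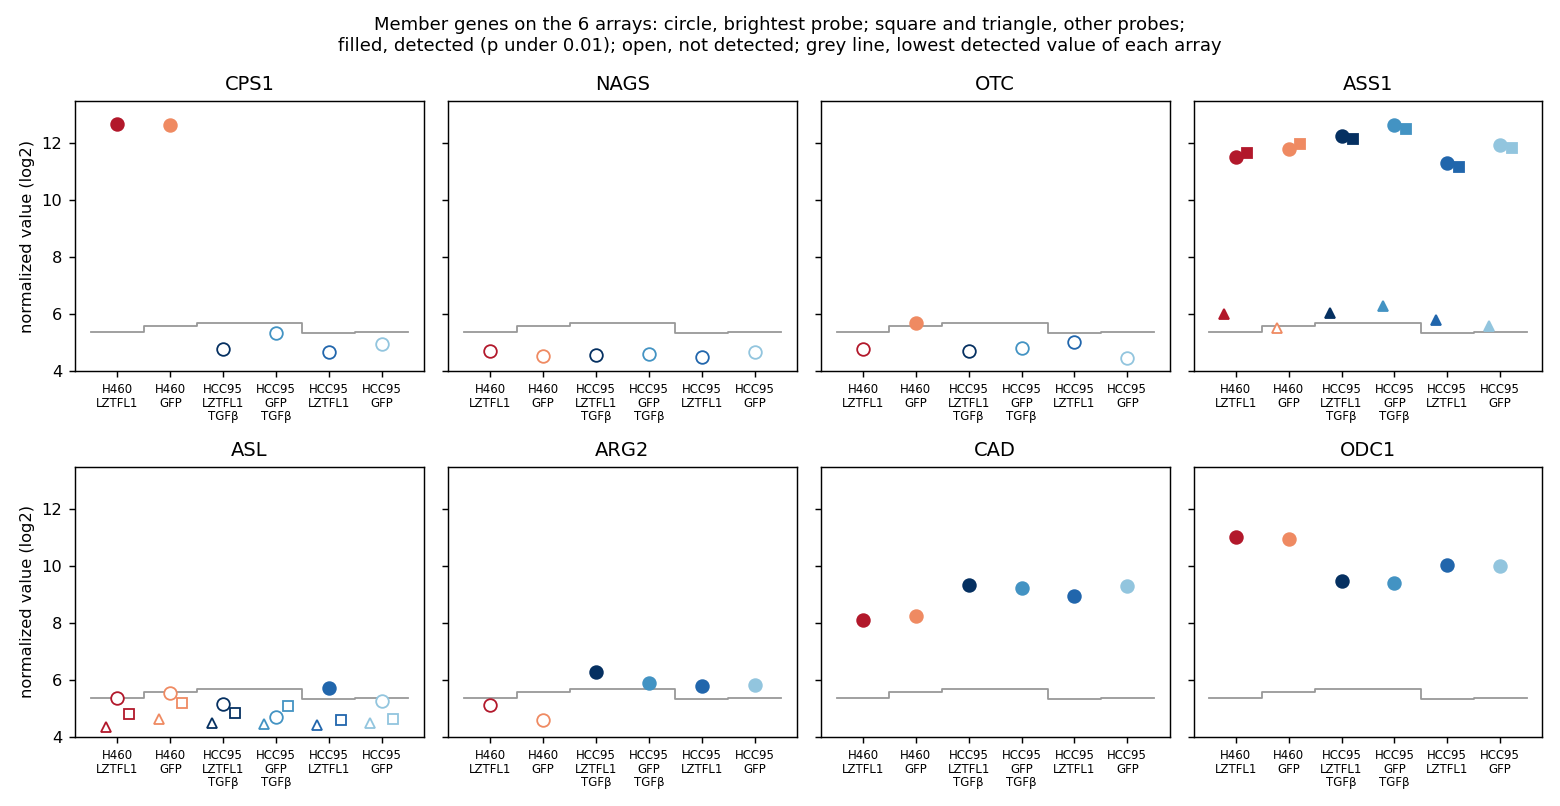
Normalized values (log2, vertical axis) of all 12 probes of the 8 genes on the 6 arrays, with filled symbols where the probe was detected and the lowest detected value of each array as a grey line. CPS1 is at 12.67 and 12.66 in H460 and under the grey line on all 4 HCC95 arrays, while NAGS is under it on all 6.

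NAGS, which makes the activator that CPS1 needs, was not detected on any array, with log2 values of 4.70 and 4.55 in H460 LZTFL1 and GFP cells and 4.52 to 4.67 in HCC95 cells. OTC, the next enzyme, was detected on 1 of the 6 arrays, H460 GFP, at 5.69, and stood at 4.78 on the H460 LZTFL1 array, undetected, and between 4.48 and 5.04 in HCC95. Its difference in the GFP pair was at least 0.31 log2 units in favour of H460. The high CPS1 signal in H460 thus stood beside neighbours at or near background. A probe at background is below what this array measures, which is not the same as an absent transcript. CPS1-IT1, a transcript from an intron of CPS1 that was looked up after its host's values were seen, was not detected on any array, with detection p of 0.278 and 0.0208 on the H460 LZTFL1 and GFP arrays.

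ASS1, the enzyme that limits arginine synthesis in many tissues, was bright in both lines. Its brightest probe, ILMN_2395451, had log2 values of 11.51 in H460 LZTFL1 and 11.81 in H460 GFP cells. In HCC95 the values were 12.27 (LZTFL1, labelled TGFβ), 12.65 (GFP, labelled TGFβ), 11.30 (LZTFL1) and 11.94 (GFP). The lines overlapped: H460 was 0.21 higher in the LZTFL1 pair and 0.14 lower in the GFP pair (log2 difference of -0.14). A further probe, ILMN_1708778, followed the same order within each line, at 11.67 and 11.98 in H460 and at 12.16, 12.52, 11.18 and 11.83 in HCC95. The third, ILMN_1688234, was dim, between 5.53 and 6.29, and was detected on 5 of the 6 arrays. ASS1 has many processed pseudogenes, and which of its probes also bind their transcripts was not tested.

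ASL, which follows ASS1, was at the edge of detection. Its probe ILMN_2379393 was detected on the untreated HCC95 LZTFL1 array alone, at 5.72, with a detection p of 0.0013. Both H460 arrays had a detection p of 0.0104, just outside the threshold of 0.01, at 5.38 and 5.56. The other 2 ASL probes were detected on no array.

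ARG2, the mitochondrial arginase found outside the liver, was dim and lower in H460. It was not detected in H460, at 5.14 (LZTFL1) and 4.61 (GFP), and was detected on all 4 HCC95 arrays, at 6.30, 5.90, 5.81 and 5.83 in the order LZTFL1 labelled TGFβ, GFP labelled TGFβ, LZTFL1 and GFP. The difference of H460 from HCC95 was a fall of at least 1.34-fold in the LZTFL1 pair and at least 1.18-fold in the GFP pair, log2 -0.43 and -0.23. Of the genes measured in both pairs, 63.7% had a larger mean difference than ARG2 in either direction. The mean of both pairs, -0.33, depended on how undetected values were treated: it was -0.64 with a detection threshold of 0.05, -0.94 with no filter on detection and -0.11 with no background correction. ARG1, the liver arginase, was not detected on any array.

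CAD joins carbamoyl-phosphate synthase 2, aspartate transcarbamylase and dihydroorotase in 1 cytosolic protein and so makes its own carbamoyl phosphate for pyrimidines. It stood at 8.13 and 8.25 in H460 LZTFL1 and GFP cells, and at 9.33, 9.25, 8.96 and 9.32 in HCC95 cells (LZTFL1 labelled TGFβ, GFP labelled TGFβ, LZTFL1, GFP). Every H460 value lay under every HCC95 value, a separation that was not counted over all genes. Of the genes measured in both untreated pairs, 25.2% had a larger mean difference than CAD in either direction. The H460 level was 1.78-fold lower in the LZTFL1 pair and 2.09-fold lower in the GFP pair, log2 -0.83 and -1.06, so CAD was lower in the line in which CPS1 was high.

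ODC1 turns ornithine into putrescine, the first step of polyamine synthesis. It stood at 11.03 and 10.95 in H460 LZTFL1 and GFP cells, above all HCC95 values, which were 9.49 and 9.40 on the LZTFL1 and GFP arrays labelled TGFβ and 10.04 and 10.02 on the untreated LZTFL1 and GFP arrays. H460 was 1.98-fold higher in the LZTFL1 pair and 1.91-fold higher in the GFP pair, log2 0.98 and 0.93. Of the genes measured in both pairs, 24.7% had a larger mean difference than ODC1 in either direction. Separation over all 6 arrays was not counted for other genes. The spread between probes of the same gene had an SD of 0.377 in the LZTFL1 pair and 0.389 in the GFP pair, on the log2 scale, over 2005 and 1938 genes with several detected probes.

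The rest of the urea cycle list moved little between the lines. Of 13 genes, 9 were detected on at least 1 array and 6 were measured in both untreated pairs. CPS1 was the 1 gene of these 6 that was 2-fold apart, and none was lower. The median difference of the 6, CPS1 included, was 0.42 log2 units, beside -0.00053 over all genes. SLC25A15, the mitochondrial ornithine carrier, was 0.34 and 0.67 higher in H460 in the LZTFL1 and GFP pairs. SLC25A13, the aspartate and glutamate carrier that feeds ASS1, was 0.28 and 0.72 higher. SLC25A12, its close relative, was 0.44 and 0.26 higher.

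Of 14 polyamine genes measured in both pairs, 4 were 2-fold or more higher in H460 and 1 lower, with a median of 0.55, where 9.46% of all genes were higher and 9.48% lower. SMOX, spermine oxidase, was higher by 3.15 in the LZTFL1 pair and 2.68 in the GFP pair. SAT1, which acetylates spermidine and spermine for export, was higher by 2.27 and 1.57, SMS, spermine synthase, by 1.48 and 1.64, and MTAP, which salvages the methylthioadenosine left by both synthases, by 1.02 and 1.06. PAOX, the peroxisomal oxidase of acetylated polyamines, was not detected in H460 and was lower there by log2 of at least -1.25 and -1.29. Of the genes that set how long the ODC1 protein lasts, AZIN1, which frees it from antizyme, had -0.73 and -0.96, the antizyme gene OAZ1 had 0.22 and 0.27, and the antizyme gene OAZ2 had -0.81 and -0.41.

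Pyrimidine genes did not follow CAD as a group. Of 17 measured in both pairs, 3 were higher in H460 and 1 lower, beside 9.46% and 9.48% of all genes, and the median was 0.16. CTPS2, a CTP synthase, was higher by 2.07 and 1.90 in the LZTFL1 and GFP pairs, UCK2, a uridine-cytidine kinase of the salvage route, by 1.36 and 1.77, and DPYD, which degrades uracil and thymine, by at least 1.78 and 1.52. TK1, the thymidine kinase of dividing cells, was lower by 1.47 and 1.13 (log2 differences of -1.47 and -1.13). TYMS, thymidylate synthase, had -0.98 and -0.91, close to CAD.

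Among genes of glutamine, glutamate and proline, 14 of the 16 listed were measured in both pairs. None was 2-fold higher in both and 1 was lower, ALDH4A1, a mitochondrial enzyme of proline breakdown, at log2 of at least -2.11 and -1.69. Over all genes 9.46% were higher and 9.48% lower. The median of the list was 0.09. OAT, which exchanges ornithine with glutamate semialdehyde, had -1.04 and -0.80, and SLC38A1, a glutamine transporter, 1.30 and 0.90.

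Arginine transporters lay apart in both directions. Of 10 genes measured in both pairs 2 were higher in H460 and 4 lower, with a median of -0.61. Of all genes 9.46% were higher and 9.48% lower. SLC7A2, a cationic amino acid transporter that carries arginine, ornithine and lysine, had 10.74 and 10.76 in H460 LZTFL1 and GFP cells and between 4.92 and 5.52 in HCC95 cells, where it was detected on 1 of 4 arrays. It was higher in H460 by at least 5.40 in the LZTFL1 pair and by 5.25 in the GFP pair. SLC7A1, the widely expressed arginine transporter, went the other way, at 9.83 and 9.84 in H460 and 11.18 to 11.49 in HCC95, log2 differences of -1.66 and -1.40. SLC3A2, the heavy chain shared by several amino acid exchangers, had -1.10 and -1.59. Creatine genes were split: the transporter SLC6A8 was higher by 1.06 and 1.13, GAMT, the last enzyme of creatine synthesis, had -1.67 and -1.12, and CKMT1A, a mitochondrial creatine kinase whose probe may also read the near-identical copy CKMT1B, had -3.67 and -4.22. ATP5IF1, the inhibitor of ATP synthase, stood in this list by mistake and is counted in it.

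Of 12 genes listed because they act on CPS1 transcription or on the enzyme, 10 were in the annotation and 7 were measured in both pairs. Of these 7, 2 were higher and 3 lower in H460, with a median of -0.13, where 9.46% of all genes were higher and 9.48% lower. FOXA1, a forkhead factor of endoderm, had 10.09 and 10.03 in H460 LZTFL1 and GFP cells and 5.51 to 6.33 in HCC95 cells, a difference of 4.46 and 4.53. CEBPB was higher by 1.47 and 1.06. CEBPA, the liver factor of the same family, was lower at -2.39 and -1.68, FOXA2 at -2.89 and -1.57, both bounds since it was not detected in H460, and SIRT5, a mitochondrial deacylase known to act on CPS1, at -1.17 and -1.74. STK11 had -0.27 and 0.02.

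**Figure D2:**
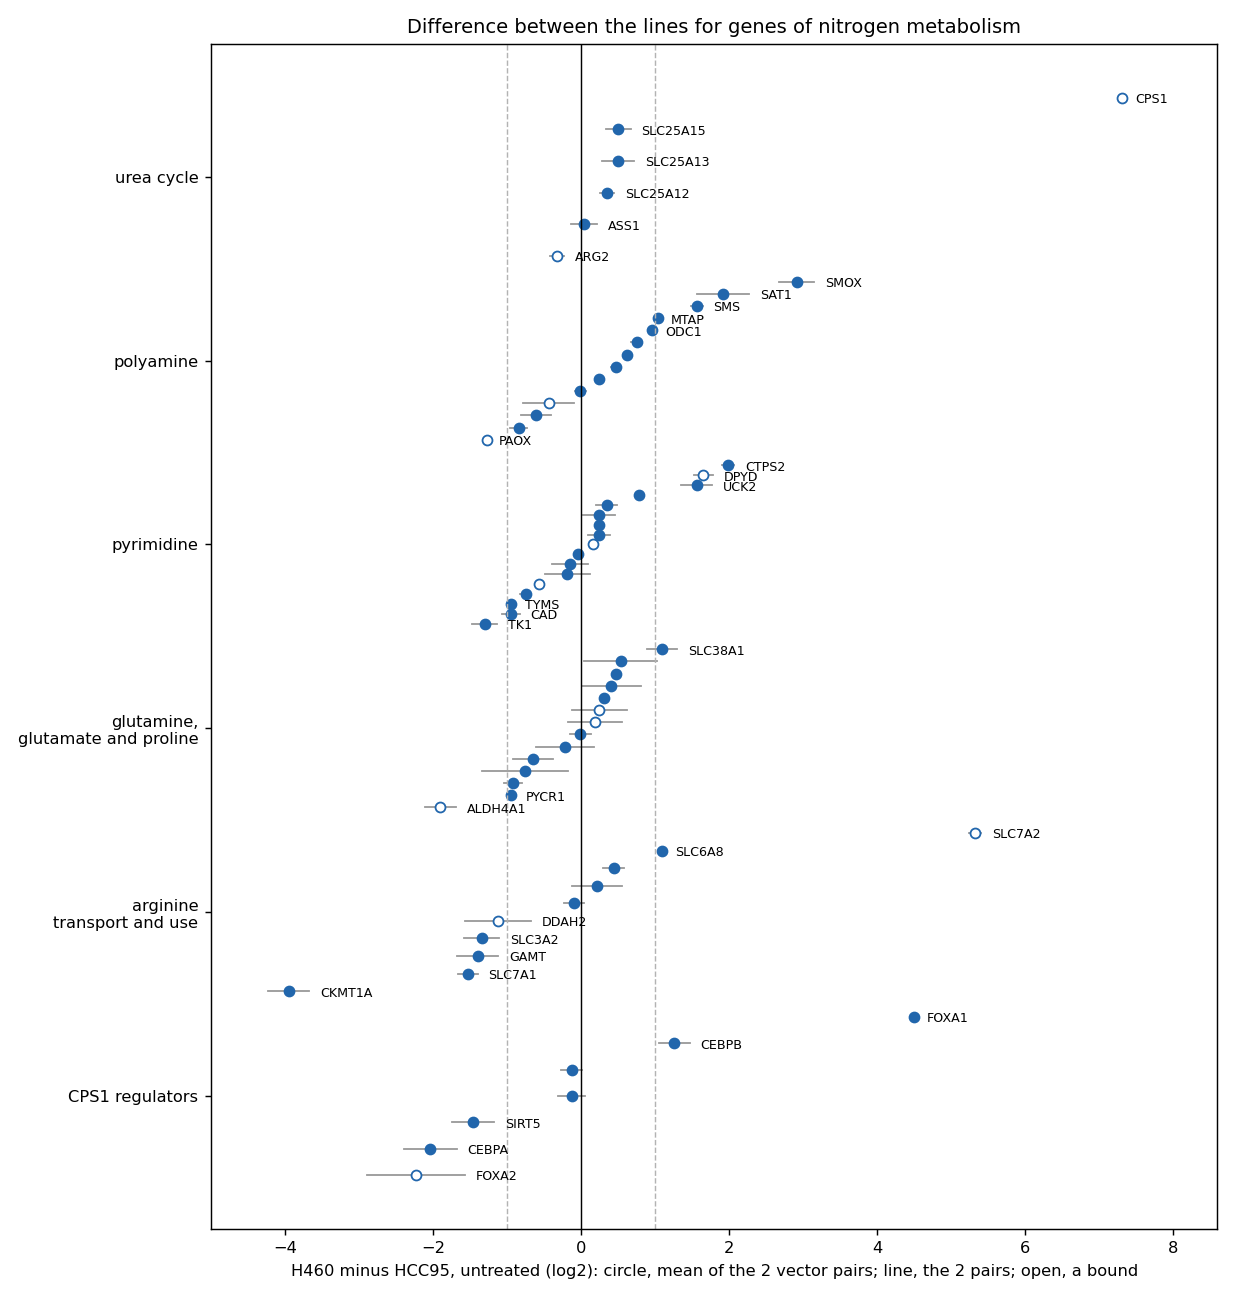
Difference of H460 from HCC95 on untreated arrays (log2, horizontal axis) for each gene measured in both vector pairs, by list; circles are the mean of the LZTFL1 and GFP pairs, lines join the 2 pairs, open circles are bounds and the dashed lines mark 2-fold. CPS1 (at least 7.31), SLC7A2 and FOXA1 lie far to the right, and CAD lies near -0.95.

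The members were chosen by the difference between the lines, and the LZTFL1 and TGFβ differences were tested. Earlier results of these data were known when members, lists and markers were chosen. Whether these tests are independent of that choice is therefore not known. In HCC95 an additive limma model was fitted to 4 arrays and 12735 features, with vector and treatment as terms. Its 1 residual degree of freedom was the change of the vector difference between treatments, since no group was repeated. limma also drew the variance of each gene towards that of genes of like level, so its p-values measure no spread between cultures. The members tested were ASS1, ARG2, CAD and ODC1, and the other 4 were detected on at most 1 HCC95 array.

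ASS1 rose on the arrays labelled TGFβ. The difference was 0.97 log2 units with the LZTFL1 vector and 0.71 with the GFP vector, and limma put it at 0.84 (SE 0.113, 95% interval 0.605 to 1.07, adjusted p = 1.1e-05), a rise of 1.79-fold. The second bright ASS1 probe, tested with every probe as a feature of its own, gave 0.83 (limma adjusted p = 8.03e-05), and the dim probe gave 0.49 (limma adjusted p = 0.297). ODC1 fell on the same arrays, with log2 differences of -0.56 with LZTFL1 and -0.61 with GFP. limma put the fall at -0.59 (SE 0.137, 95% interval -0.866 to -0.306, adjusted p = 0.00804). In both genes the arrays labelled TGFβ and the untreated arrays did not overlap, a separation that was not counted over all genes. The 2 members called compare with 6.17% of all genes called in this comparison.

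ARG2 and CAD did not pass. ARG2 differed by 0.49 and 0.08 between arrays labelled TGFβ and untreated arrays, with an estimate of 0.29 (95% interval -0.224 to 0.795, limma adjusted p = 0.558). CAD differed by 0.37 and -0.07, with an estimate of 0.15 (95% interval -0.155 to 0.461, limma adjusted p = 0.613). Both intervals hold 0 and reach up to differences of 0.46 or more. CPS1 was under the lowest detected value on all 4 arrays, so no TGFβ difference was measurable.

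ASS1 fell on the HCC95 arrays labelled LZTFL1. The difference from GFP was -0.39 on the arrays labelled TGFβ and -0.65 on the untreated arrays, with a limma estimate of -0.52 (SE 0.113, 95% interval -0.747 to -0.285, adjusted p = 0.00465). The groups overlapped across treatments and were apart within each. ASS1 was the 1 member of 4 tested that passed, in a comparison that called 7.63% of all genes. The second bright probe gave -0.51 (limma adjusted p = 0.0112) and the dim one -0.02 (limma adjusted p = 0.981). ARG2 had an estimate of 0.19, CAD of -0.14 and ODC1 of 0.05, none of which passed (limma adjusted p from 0.653 to 0.865). The call for ASS1 was lost under median scaling in place of quantile normalization (limma adjusted p = 0.122), with the mean of its 3 probes (0.143) and without a mean-variance trend (0.169), at estimates of -0.47, -0.35 and -0.52. No member was 2-fold apart in a single pair, as were 1.26% of genes between the LZTFL1 and GFP arrays labelled TGFβ and 1.02% between the untreated ones. The same held for TGFβ, with 1.51% of genes 2-fold apart with the LZTFL1 vector and 0.889% with GFP. Both TGFβ calls, too, were lost without the trend, at limma adjusted p = 0.0827 for ASS1 and 0.136 for ODC1.

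**Figure D3:**
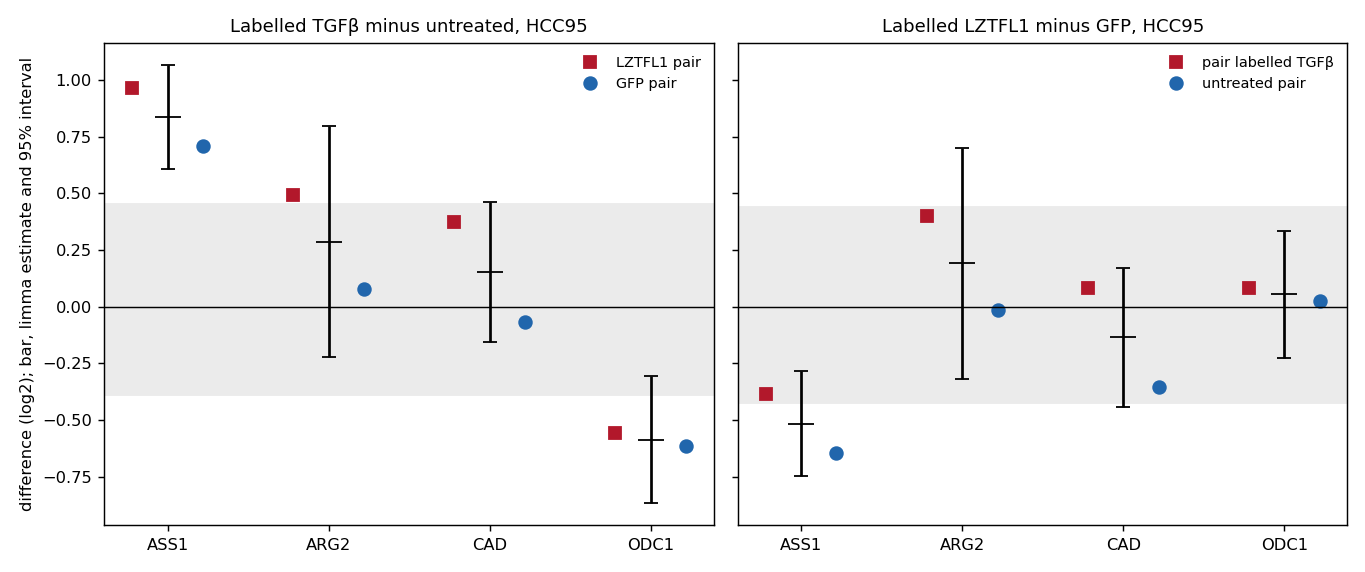
Differences (log2, vertical axis) of ASS1, ARG2, CAD and ODC1 in HCC95, labelled TGFβ minus untreated on the left and labelled LZTFL1 minus GFP on the right; squares and circles are the 2 array pairs, bars the limma estimate with its 95% interval, and the grey band the 10th to 90th percentile of all detected genes, averaged over both pairs. ASS1 lies above the band on the left at 0.84 and below 0 on the right at -0.52, and ODC1 lies below the band on the left at -0.59.

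In H460 the LZTFL1 and GFP arrays were close. CPS1 differed by 0.02 log2 units, ODC1 by 0.08, CAD by -0.12 and ASS1 by -0.30, with an SD between probes of the same gene of 0.209 in this pair. With 1 array each there was no test within H460, and 0.155% of the genes measured were 2-fold apart. A limma fit of an LZTFL1 difference shared by both lines, over 6 arrays and 14101 features, called none of the 5 members tested and 1 feature of all, 0.00709%. Of the members, ASS1 alone had an unadjusted p under 0.05 in that fit, at -0.44 (95% interval -0.667 to -0.219, limma adjusted p = 0.336). Its brightest probe was lower on the LZTFL1 array in 3 of 3 pairs. The dim ASS1 probe was higher there by at least 0.41 in H460 and by 0.20 in untreated HCC95. On the arrays labelled TGFβ the dim probe had -0.23. With the mean of all ASS1 probes the shared estimate was -0.25 (limma adjusted p = 0.542). The test of whether the LZTFL1 difference was unlike in H460 and HCC95 called 0.305% of genes and no member, and no member had an unadjusted p under 0.05 there. For ASS1 that difference was 0.22 (95% interval -0.183 to 0.619, limma adjusted p = 0.769). The CPS1 values in these fits rest on undetected HCC95 signals.

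Other genes of the same pathways moved with the labels in HCC95, where limma called 6.17% of all genes tested for TGFβ. On arrays labelled TGFβ, 3 of 14 polyamine genes passed: SAT1 rose by 1.48 (limma adjusted p = 2.5e-08), to 11.36 and 11.11 against 9.57 and 9.94 on the untreated arrays with LZTFL1 and GFP, while ODC1 and SMS fell, SMS by 0.51 (limma adjusted p = 0.0257). Of 15 pyrimidine genes 2 fell, RRM2, a subunit of ribonucleotide reductase, by 0.89 and TYMS by 0.54 (limma adjusted p = 0.0172 and 0.0042). ASS1 was the 1 of 5 urea cycle genes tested that passed. ASNS, asparagine synthetase, rose by 0.37 as the 1 of 14 genes in the glutamine list, and SIRT5 rose by 0.64 as the 1 of 7 CPS1 regulators, as limma put it (adjusted p = 0.041 for ASNS and 0.00766 for SIRT5). None of 9 arginine genes passed limma's test, and 0 had an unadjusted p under 0.05.

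On arrays labelled LZTFL1, limma called 7.63% of all genes tested. It called no polyamine gene of 14, with 2 at an unadjusted p under 0.05. There 2 of 15 pyrimidine genes rose, TK1 by 0.45 and UPP1, uridine phosphorylase, by 0.53 (limma adjusted p = 0.0388 and 0.0113). PSAT1, an enzyme of serine synthesis that uses glutamate, fell by 0.71 as the 1 of 14 in its list (limma adjusted p = 0.000168). Of 9 arginine genes 2 rose, DDAH2, which degrades methylated arginines, by 0.81 and CKB, brain-type creatine kinase, by 0.53 (limma adjusted p = 0.0183 and 0.013). Of 7 CPS1 regulators 2 rose, FOXA2 by 1.19 and CEBPA by 0.57 (limma adjusted p = 3.74e-05 and 0.0168), in a line where CPS1 itself was not detected. Of the 7 squamous and basal markers, 3 were lower on the arrays labelled LZTFL1, KRT14 by a log2 difference of -1.60, DSG3 by -1.04 and SERPINB5 by -0.56, and 3 on those labelled TGFβ, S100A2 by -0.82, DSG3 by -0.55 and SERPINB5 by -0.52. VWF, a marker of endothelium, was higher on the arrays labelled TGFβ by 1.60 (limma adjusted p = 1.6e-05), at 7.41 and 7.14 against 5.59 and 5.76 on the untreated arrays with LZTFL1 and GFP. The part of these markers in the ASS1 and ODC1 differences was not tested.

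The genes whose profile over the 6 arrays lay nearest to CPS1 were MGST1, QPCT, COL5A2, EPB41L3 and KYNU, out of 8900 genes detected at least where CPS1 was. Likeness was the root mean square distance between profiles centred on their own mean, and ran from 0.214 to 0.282 log2 units. All 5 were high on both H460 arrays and lay between 4.34 (MGST1) and 5.77 (QPCT) in HCC95, so the 6 points come down to a difference between the lines. MGST1 is a membrane-bound glutathione transferase, QPCT forms pyroglutamate at the ends of peptides, COL5A2 is a fibrillar collagen chain, and KYNU, kynureninase, belongs to tryptophan breakdown.

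For ODC1 the nearest profiles were those of TOR1AIP1, SLC25A20, NETO2, CEP70 and CYP20A1, at distances of 0.0578 to 0.105 among 7642 genes. They shared its 3 levels, highest in H460, lower in untreated HCC95 and lowest on the arrays labelled TGFβ. CUTC was nearest to ASS1 at 0.110, and DTD1 to CAD at 0.0668. VAV2 was nearest to ARG2 at 0.0873. For OTC and ASL, each detected on 1 array, the profile is mostly background, and the nearest were SPIN2B and TMTC3.

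**Figure D4:**
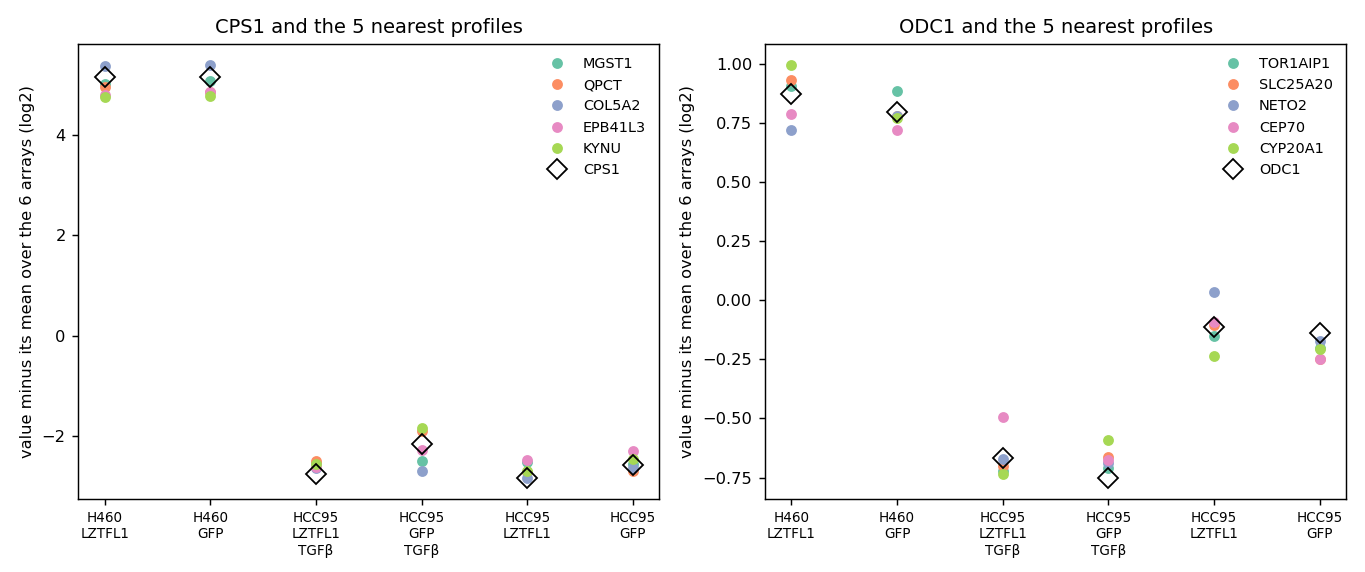
Values of CPS1 (left) and ODC1 (right) on the 6 arrays as diamonds, with the 5 genes of nearest profile as dots, each gene minus its own mean over the arrays (log2, vertical axis). CPS1 and its 5 neighbours split by line alone, and ODC1 and its neighbours are lowest on the 2 arrays labelled TGFβ.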

How the data were processed

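The authors deposited raw probe intensities, each with its detection p-value, and a separate processed table of intensities, linear in scale. Per the submitters' processing notes both came from GenomeStudio 2011.1, with settings not given in the sources used here. All processed columns share 1 distribution (median 13.1, minimum 3.33) and keep each array's order of probes; the method and centring behind it are unknown.

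From the raw signals, limma 3.58.1 (R 4.3.3) made the values used: neqc with the background inferred from detection p, normexp, offset 16, quantile normalization and log2. The offset draws dim values together. The platform annotation named 30113 of 47323 probes with 1 symbol and 8 with several, and the 17202 it does not list are unnamed here. The reference table matched 30074 of them. A gene was read from its brightest probe, and each probe without 1 symbol was kept as a feature of its own, giving 37256 features. Undetected values (detection p of 0.01 or more) were raised to the lowest detected value of their array, and such a difference is a bound, written "at least". A pair was measured if either array detected the gene, and a fit took genes detected on at least 2 of its arrays. Fits used lmFit and eBayes with a mean-variance trend and Benjamini-Hochberg adjustment at 0.05 over all genes. Each step was tested on simulated data.

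The members, lists and markers were chosen with earlier results of these data known. Named were all 8 members with every probe, list genes that were 2-fold apart the same way in both untreated pairs or passed a fit, otherwise the 3 furthest of a list, and the 5 nearest profiles. SLC25A12, SLC25A13, SLC25A15, AZIN1, OAZ1, OAZ2, FGB, OAT, SLC38A1 and STK11 were named after their values were seen. Each group had 1 array, so no spread within a group is known, and the number of arrays limits all tests. Alternatives were no background correction, median scaling, offset 50, the processed values, the mean of all probes, other detection thresholds, fits without trend or without the other term, and the HCC95 arrays labelled TGFβ. Each probe as a feature was added after seeing the data. Plots were drawn with matplotlib 3.10.9 in Python 3.11.15.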

Additional observations from a re-analysis of the deposited data

How the results depend on the processing

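CPS1 stayed higher in H460 under all 8 alternatives, with a mean difference of 5.51 without background correction, 6.44 with an offset of 50, 6.97 against the HCC95 arrays labelled TGFβ and 7.84 without a filter on detection, beside 7.31. Against those arrays 2 members were 2-fold apart, since ODC1 then reached 1.55, and ASS1 stood at -0.80. The LZTFL1 count in HCC95 was 0 of the members under median scaling, with the mean of all probes, without a mean-variance trend and without a treatment term (limma adjusted p of 0.122, 0.143, 0.169 and 0.597 for ASS1). The TGFβ count was 0 without a trend and without a vector term (limma adjusted p of 0.419 for ASS1 and 0.444 for ODC1 in the second). Leaving out the H460 pair gave the shared fit 1 member, ASS1 at -0.52, but this is the HCC95 fit for LZTFL1 again. Its 972 calls over all genes are the upper end of the range given below for the shared fit. CAD turned to -0.092 in the TGFβ fit under median scaling, where the median of all genes moved to -0.21; relative to it CAD had 0.12, ASS1 0.85 and ODC1 -0.60. The cause of these shifts was not tested. Over all genes, the calls ranged over the alternatives from 5 to 963 for LZTFL1 in HCC95 (972 as reported), 9 to 867 for TGFβ (786), 0 to 972 for the shared fit (1) and 0 to 107 for the difference between lines (43). Median scaling also moved the split of calls, to 110 higher and 290 lower for LZTFL1 in HCC95 (476 and 496 as reported) and to 121 higher and 746 lower for TGFβ (435 and 351). Every group had 1 array, numbered 1, so the replicate number could not be a block. The LZTFL1 fits paired the vectors within the context or treatment that the labels give, and the TGFβ fit compared treatments within each vector. Dim genes, NAGS, OTC, ASL and ARG2, are limited by signal over background.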
